A study of Mus musculus with 8 samples.

Results

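The genes described are 10 regulators of cell division in mouse white fat: the inhibitors Cdkn1a, Cdkn1b, Cdkn1c, Cdkn2a, Cdkn2b and Cdkn2c, the cyclin Ccnd1 with its kinase partner Cdk4, and Mdm2 and Hmga2, which together with Cdk4 are known from liposarcoma, a cancer of fat. They were given by name, and a probe was counted for a gene when the accession in the array file maps to that symbol in RefSeq. This gave 16 probes of 55681 that are not controls, and 10 of the 36799 gene names on the array. Gene expression was measured in white adipose tissue of 4 Ad/NICD mice, which overexpress the intracellular domain of Notch1, and of 4 wild-type (WT) mice. Both groups were 5 weeks old, of a mixed 129 × C57BL/6 strain and on regular chow, and neither carried a further allele or agent according to the labels. Each sample is labelled as a biological replicate. Depot, sex and the promoter that drives the transgene, and thus the cells that made it, are not given in the labels used here.

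Total RNA was hybridised to 4 Agilent arrays with 2 dyes, and each array held 1 Ad/NICD and 1 WT sample of the same replicate number. Ratios are given as red (Cy5) over green (Cy3), which is likely to be Ad/NICD over WT, because the authors' value table holds the red channel under the Ad/NICD names and the green channel under the WT names. Against this, the dye tags mark Ad/NICD as Cy3 and WT as Cy5. If those tags were right, every sign below would turn and the levels of both genotypes would change places. No array had its dyes swapped, so dye and genotype cannot be told apart.

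On these arrays 56.9% to 67.8% of probes were well above background in a given channel, and precision is limited by having only 4 arrays. Over 25091 gene names, limma called 12 at a Benjamini-Hochberg adjusted p under 0.05, which is 0.0478% of them. Notch1 itself had log2 signals of 10.32, 8.95, 8.85 and 8.53 in Ad/NICD fat, against 9.08, 8.60, 8.86 and 8.67 in WT fat. These signals are from its brightest probe, with a mean log2 ratio of 0.36 ± 0.24 (SE), while its other kept probe had 0.04. The place of either probe relative to the transgene is unknown, so this checks nothing. Heyl, a target of Notch signalling, was among the 12 calls with a log2 ratio of 2.88 ± 0.17 (SE, n = 4 arrays, adjusted p = 0.0399 by limma). Hes1, Nrarp and Hey1, Notch targets read beside it, were not called. Their log2 ratios were 0.255 ± 0.09, 0.44 ± 0.21 and -0.20 ± 0.18 (SE, adjusted p = 0.287, 0.398 and 0.658 by limma). All 11 adipocyte markers were well above background on at least 3 arrays. The array of replicate 4 stood apart: Xist was at 5.87 in its Ad/NICD and 6.12 in its WT sample, against at least 10.15 in the other 3 samples of each genotype. The Y-linked gene Ddx3y was at 9.56 in the Ad/NICD and 9.96 in the WT sample of that array, and at most 5.86 elsewhere. Eif2s3y, also Y-linked, was at 10.82 and 10.94 in those samples and at most 6.06 elsewhere, though well above background in 1 further Ad/NICD sample. Results are given without replicate 4 where it matters.

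Cells commit to division when cyclin D and its kinases phosphorylate the retinoblastoma protein and so release the E2F factors. The INK4 inhibitors, made by the Cdkn2 genes, bind the kinase partners of cyclin D, while the CIP/KIP inhibitors, made by the Cdkn1 genes, act on a wider range of cyclin-kinase complexes. In human well-differentiated liposarcoma, MDM2, CDK4 and often HMGA2 are amplified together. Mdm2 marks p53 for destruction, and Hmga2 is a chromatin protein of growing tissue that is silenced in most adult cells. In fat, p21 and p27 are known to restrain the growth of adipocyte precursors.

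The RefSeq promoter table (GRCm38.p6) holds 8 of the 10 genes, without Cdkn1c and Ccnd1. It places Cdkn2a, Cdkn2b and Cdkn2c on chromosome 4, Cdkn1b on chromosome 6, Cdkn1a on chromosome 17, and Mdm2, Hmga2 and Cdk4 together on chromosome 10. The 250 bases before the start are shown for Cdkn2b and Cdkn2c, the INK4 genes whose ratios lay furthest above and below 0, and for Cdk4, the kinase that both of their proteins bind. Each is written 5′ to 3′ on the strand of the gene, and capitals mark matches on either strand to 5 motifs: TGGGAA (the core that RBPJ, the DNA-binding partner of Notch, recognises), the E-box CACGTG, its variant CACGCG and the N-box CACNAG (which Hes and Hey factors or their relatives bind) and GGGCGG (the Sp1 box). Cdkn2b lies at chr4:89311033-89311282 on the minus strand, the distal Cdkn2c start at chr4:109666757-109667006 on the minus strand, and Cdk4 at chr10:127063285-127063534 on the plus strand.
Cdkn2b: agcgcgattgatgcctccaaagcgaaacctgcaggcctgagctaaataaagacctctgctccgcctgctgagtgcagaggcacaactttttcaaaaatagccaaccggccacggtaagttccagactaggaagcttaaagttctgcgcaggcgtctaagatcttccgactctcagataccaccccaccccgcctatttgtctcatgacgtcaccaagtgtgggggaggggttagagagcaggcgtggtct
Cdkn2c: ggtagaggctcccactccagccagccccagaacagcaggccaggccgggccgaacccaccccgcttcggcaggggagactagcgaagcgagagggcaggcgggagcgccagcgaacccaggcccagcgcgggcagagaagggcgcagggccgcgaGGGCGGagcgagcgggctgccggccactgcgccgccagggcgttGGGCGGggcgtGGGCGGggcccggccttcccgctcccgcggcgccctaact
Cdk4: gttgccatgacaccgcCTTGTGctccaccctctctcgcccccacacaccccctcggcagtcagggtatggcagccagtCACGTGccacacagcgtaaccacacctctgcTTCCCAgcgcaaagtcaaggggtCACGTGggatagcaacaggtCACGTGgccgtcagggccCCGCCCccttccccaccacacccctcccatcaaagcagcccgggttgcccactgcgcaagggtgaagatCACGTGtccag

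In these windows Cdkn2b held none of the 5 motifs and 12 CpG dinucleotides. Cdkn2c held 3 Sp1 boxes and 29 CpG, and Cdk4 held 4 E-boxes with 1 match each to the RBPJ core, the N-box and the Sp1 box, and 13 CpG. Of 32851 promoter windows of the same length, 21.6% held the RBPJ core, 6.02% the E-box, 7.62% CACGCG, 36.7% the N-box and 32.7% the Sp1 box, and the median window had 6 CpG. The second listed Cdkn2c start, at chr4:109665373-109665622, held none of the 5 motifs. Of the windows not shown, 1 of Cdkn2a and 1 of Cdkn1a also held the RBPJ core, so this match was not particular to Cdk4. CACGCG was found in a window of Cdkn2a and in that of Cdkn1b. A match describes letters in a window and does not show a bound site.

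Of the 10 genes, 0 passed the adjusted threshold, against the 0.0478% of all gene names. At an unadjusted p under 0.05, limma singled out 4: Cdkn1b and Cdkn2b with higher signal in Ad/NICD fat, and Cdkn1c and Cdkn2c with lower. The same unadjusted threshold took 15.2% of all gene names, 6.26% of them higher and 8.99% lower. The median log2 ratio of the 10 genes was 0.10, with 8 above 0, beside a median of -0.01 over all gene names. The main results are therefore sizes and spreads, given here at the brightest probe of each gene. Cdkn1c and Cdkn2c had log2 ratios of -0.91 or lower on 3 of 4 arrays. Cdkn2b had 0.38 or higher on every array, though 0.09 to 0.33 at its dimmer second probe. Cdk4, Mdm2 and Hmga2 lay between -0.15 and 0.23 on every array.

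**Figure D1:**
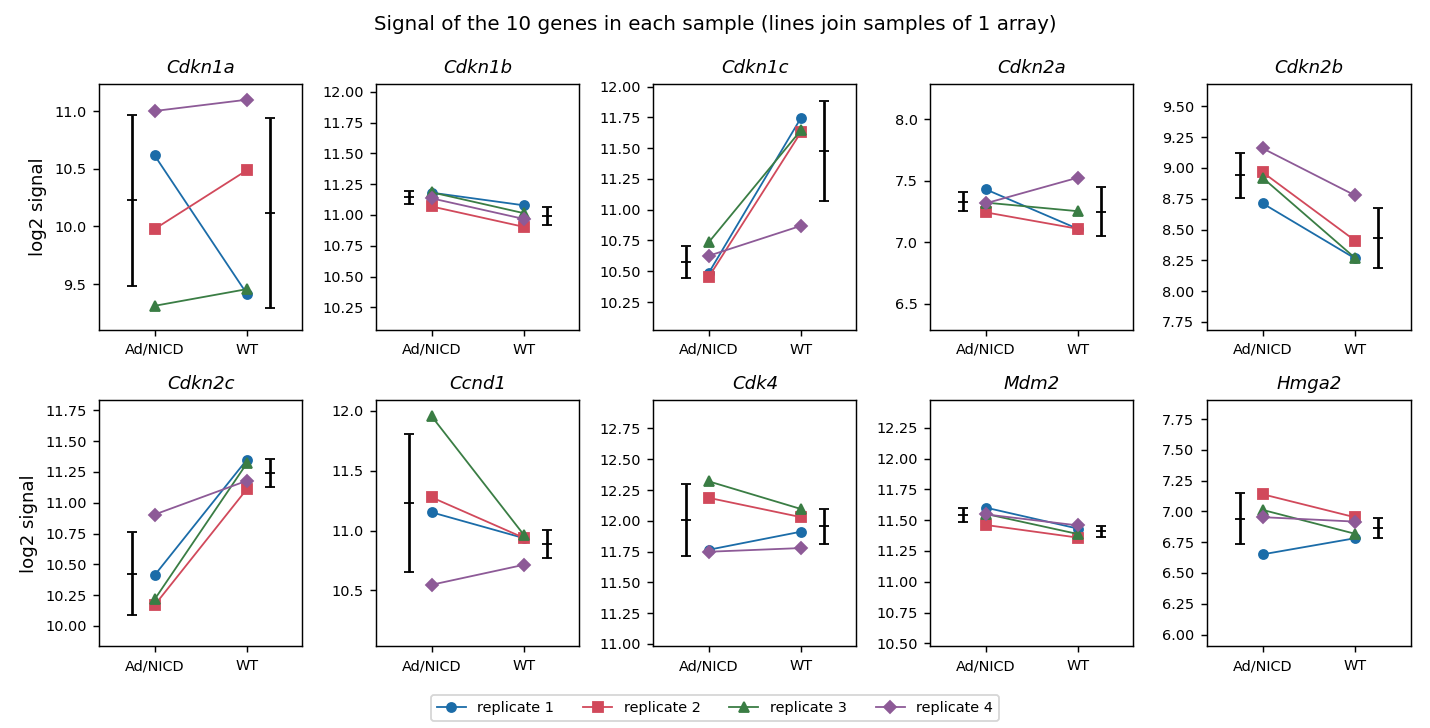
Log2 signal (y axis, after loess and scaling of brightness between arrays) of the brightest probe of each gene in the 4 Ad/NICD and 4 WT samples. Lines join the samples of 1 array, and black bars give the mean ± SD of each genotype. Cdkn1c and Cdkn2c lie lower in every Ad/NICD sample than in any WT sample, and Mdm2 lies higher by a small margin.

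Cdkn2b encodes p15, an INK4 inhibitor known as a target of TGF-beta signalling. Its log2 signal was 8.71, 8.96, 8.92 and 9.16 in Ad/NICD fat, against 8.27, 8.41, 8.27 and 8.78 in WT fat (replicates 1 to 4). Every Ad/NICD sample was above the WT sample on its own array, but the groups overlapped, because WT replicate 4 lay above Ad/NICD replicate 1. The 4 log2 ratios were 0.45, 0.56, 0.65 and 0.38. They averaged 0.51 ± 0.07 (SE, 95% interval 0.33 to 0.69), a fold of 1.42, with an unadjusted p of 6.60e-04 and an adjusted p of 0.117 (limma). By unadjusted p this was number 141 of all gene names, the lowest of the 10 genes. A second, dimmer Cdkn2b probe also had 4 ratios above 0, of 0.26, 0.33, 0.09 and 0.21, with a mean of 0.22 ± 0.05. The probes of 1 gene target the same transcript and thus are no independent replicates. They agreed in sign on each array and differed in size. All 4 ratios were above 0 in 11.2% of all gene names.

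Cdkn2c encodes p18, the INK4 inhibitor known to be induced as adipocyte precursors mature. Its log2 signal was 10.41, 10.17, 10.21 and 10.90 in Ad/NICD fat, against 11.35, 11.11, 11.32 and 11.18 in WT fat. The groups did not overlap. The log2 ratios were -0.94, -0.94, -1.11 and -0.28, so 3 arrays lay close together and replicate 4 closer to 0. The mean was -0.82 ± 0.15 (SE, 95% interval -1.20 to -0.44), a fold of 0.568, with an unadjusted p of 0.00241 and an adjusted p of 0.135 (limma). In a fit of the separate channels that takes the array as a random block, Cdkn2c passed the threshold (adjusted p = 0.0361 by limma). Without replicate 4 the log2 ratio was -0.997, at an adjusted p of 0.0546. Other settings gave far higher values: the adjusted p was 0.571 without replicate 3 and 0.432 with a trended robust eBayes (limma).

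Cdkn2a shares its locus with Cdkn2b and encodes both the INK4 inhibitor p16 and ARF, a protein that holds Mdm2 in check. Its log2 signal was 7.43, 7.24, 7.32 and 7.32 in Ad/NICD fat, against 7.11, 7.11, 7.25 and 7.53 in WT fat. The groups overlapped, and WT replicate 4 was the highest sample. The mean log2 ratio was 0.08 ± 0.10 (SE, adjusted p = 0.753 by limma), over ratios of 0.32, 0.13, 0.07 and -0.21. Leaving out replicate 1 gave -0.002 and leaving out replicate 4 gave 0.17. A second Cdkn2a probe was not well above background on any array.

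Among the INK4 genes, no ratio passed the adjusted threshold, and the fourth, Cdkn2d, which encodes p19, had 0.08 ± 0.12 (SE, adjusted p = 0.797 by limma). At the brightest probes the log2 ratio of Cdkn2b exceeded that of its neighbour Cdkn2a on 4 of 4 arrays, by 0.43 ± 0.11 (SE). It exceeded that of Cdkn2c on 4 of 4 arrays, by 1.32 ± 0.24. An exact two-sided sign-flip test gave p = 0.125 for each pair, the smallest p that 4 arrays allow. After adjustment over the 3 pairs compared it was 0.188, so this design cannot reach the threshold. For Cdkn2b against Cdkn2c the outcome was fixed by their opposite signs on 4 of 4 arrays. At the dimmer Cdkn2b probe the ratio on the array of replicate 1 was 0.26, below the 0.32 of Cdkn2a. The result against Cdkn2a thus depends on the probe.

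Cdkn1c encodes p57, an imprinted CIP/KIP inhibitor with a known part in growth before birth. Its log2 signal was 10.48, 10.45, 10.73 and 10.62 in Ad/NICD fat, against 11.75, 11.63, 11.65 and 10.87 in WT fat. The groups did not overlap, and WT replicate 4 lay far below the other 3 WT samples. The log2 ratios were -1.26, -1.18, -0.91 and -0.24. Their mean was -0.90 ± 0.18 (SE, 95% interval -1.36 to -0.44), a fold of 0.536, with an unadjusted p of 0.00381 and an adjusted p of 0.150 (limma). Cdkn1c too passed the threshold in the fit with the random block (adjusted p = 0.0460 by limma). Without replicate 4 the log2 ratio was -1.12, at an adjusted p of 0.0597. As for Cdkn2c, other settings gave far higher values: 0.594 without replicate 3 and 0.432 with a trended robust eBayes (adjusted p by limma). The fit with the random block thus called 2 of the 10 genes, both lower in Ad/NICD fat, against 1.98% of all gene names, 0.845% higher and 1.13% lower. A fit of the separate channels without the block called 0 of the 10 genes and 1.02% of all gene names.

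Cdkn1b encodes p27, an inhibitor that is mostly controlled through the stability of its protein. Its log2 signal was 11.18, 11.07, 11.18 and 11.13 in Ad/NICD fat, against 11.08, 10.90, 11.01 and 10.97 in WT fat. The groups overlapped narrowly, with every Ad/NICD sample above the WT sample of its array. The log2 ratios of 0.10, 0.17, 0.17 and 0.17 averaged 0.15 ± 0.06 (SE), a fold of 1.11, with an unadjusted p of 0.0410 and an adjusted p of 0.306 (limma).

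Cdkn1a encodes p21, the inhibitor known as a direct target of p53, and it varied most of the 10 genes. Its log2 signal was 10.62, 9.98, 9.31 and 11.001 in Ad/NICD fat, against 9.42, 10.49, 9.46 and 11.10 in WT fat. Both groups spanned nearly the same range, with SDs of 0.74 in Ad/NICD fat and 0.82 in WT fat. The log2 ratio was 1.20 on the array of replicate 1 and -0.51, -0.15 and -0.10 on the others, for a mean of 0.11 ± 0.29 (SE, adjusted p = 0.889 by limma). Replicate 1 decides its sign, and the mean was -0.25 without it. This probe is printed in 10 spots on each array. The SD over those spots was 0.07 to 0.09, which covers spot error only, not RNA, labelling or array. A second probe, matched to another transcript of the gene, was dim and had ratios of 0.09, 0.22, 0.07 and 0.55. The 2 Cdkn1a probes therefore disagree in sign on 3 of 4 arrays.

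**Figure D2:**
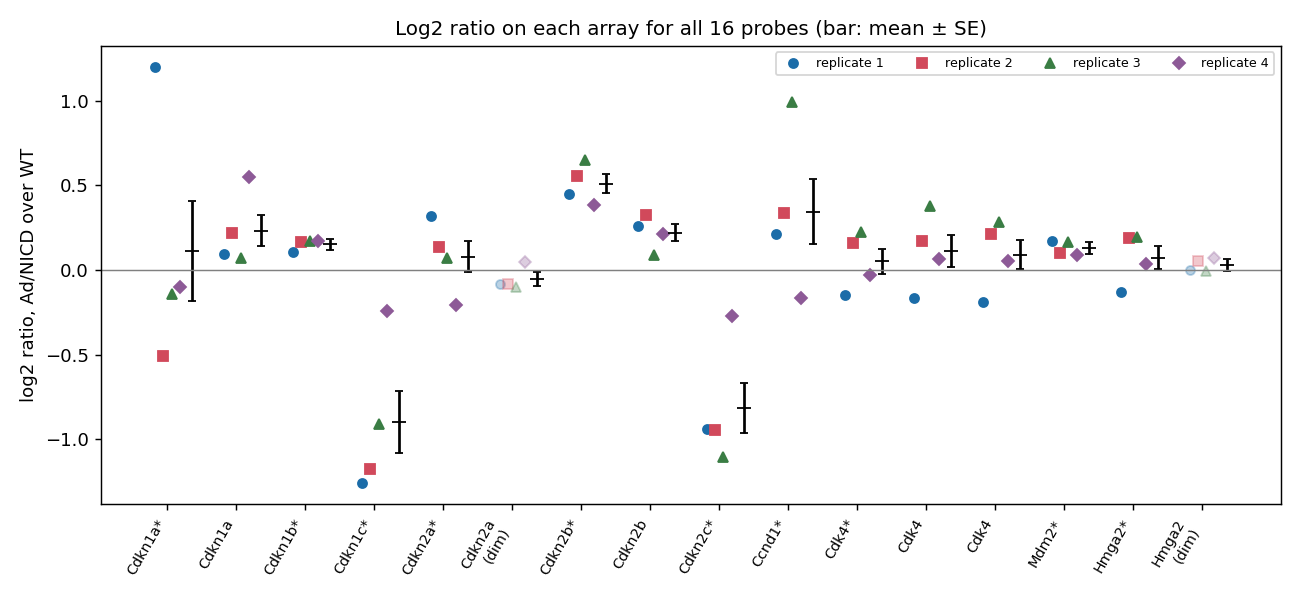
Log2 ratio of Ad/NICD over WT (y axis) on each of the 4 arrays for all 16 probes of the 10 genes. Asterisks mark the brightest probe of a gene, pale points mark probes not well above background, and black bars give the mean ± SE. Replicate 1 stands alone for Cdkn1a at 1.20, and replicate 4 lies nearest to 0 for Cdkn1c, Cdkn2c and most other brightest probes.

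Ccnd1, the D-type cyclin that growth signals induce, had log2 signals of 11.15, 11.28, 11.95 and 10.55 in Ad/NICD fat, against 10.94, 10.94, 10.96 and 10.71 in WT fat. The Ad/NICD samples spread widely around tight WT samples, and the groups overlapped. The log2 ratios were 0.22, 0.34, 0.99 and -0.17, with a mean of 0.34 ± 0.19 (SE, 95% interval -0.14 to 0.83, adjusted p = 0.456 by limma). Replicate 3 carried much of this, since leaving it out gave a mean of 0.13, while leaving out replicate 4 gave 0.52.

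Cdk4, the kinase partner of cyclin D, had log2 signals of 11.77, 12.19, 12.32 and 11.75 in Ad/NICD fat, against 11.91, 12.03, 12.10 and 11.78 in WT fat. The groups overlapped in full. The mean log2 ratio was 0.05 ± 0.08 (SE, 95% interval -0.16 to 0.27, adjusted p = 0.815 by limma), and without replicate 3 its sign turned, at -0.007. The other 2 Cdk4 probes averaged 0.11 and 0.09. All 3 Cdk4 probes had ratios below 0 on the array of replicate 1 and above 0 on those of replicates 2 and 3. The log2 ratio of Ccnd1 exceeded that of Cdk4 on 3 of 4 arrays, by 0.29 ± 0.19 (SE, exact two-sided sign-flip p = 0.250).

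Mdm2, the ubiquitin ligase that removes p53, had log2 signals of 11.60, 11.46, 11.55 and 11.55 in Ad/NICD fat, against 11.43, 11.36, 11.39 and 11.46 in WT fat. The groups did not overlap, though the lowest Ad/NICD sample and the highest WT sample differed only in the third decimal. The log2 ratios of 0.17, 0.10, 0.16 and 0.09 averaged 0.13 ± 0.06 (SE, 95% interval -0.01 to 0.28), a fold of 1.10, at an adjusted p of 0.365 (limma). Mdm2 was small in size and steady over arrays. Together with Cdkn1c and Cdkn2c it made 3 of 10 genes whose groups did not overlap, against 9.8% of all gene names. Of all gene names 4.22% did not overlap with Ad/NICD higher and 5.58% with Ad/NICD lower.

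Hmga2 was dim, though well above background on 4 of 4 arrays. Its brighter probe had log2 signals of 6.65, 7.14, 7.01 and 6.95 in Ad/NICD fat, against 6.78, 6.95, 6.82 and 6.92 in WT fat. The groups overlapped, with a mean log2 ratio of 0.07 ± 0.08 (SE, 95% interval -0.13 to 0.27, adjusted p = 0.718 by limma). The second Hmga2 probe was not well above background on any array.

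The array ratios of 15822 other genes with a RefSeq symbol were set beside those of Cdkn2b, as a description. The smallest root mean square differences over the 4 arrays were those of Rack1 at 0.0657, Rps28 at 0.0675, Npcd at 0.0821, Mn1 at 0.0859 and Rps27a at 0.0860. Rps28 and Rps27a encode ribosomal proteins, and Rack1 encodes a protein bound to the small ribosomal subunit.

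Related lists put the 10 genes in the setting of their pathways. In each of these lists 0 genes passed the adjusted threshold in the ratio fit. Of the G1 machinery, 19 of 21 genes were measured, 12 of them above 0, with a median log2 ratio of 0.07. Rb1, the retinoblastoma gene, was the exception by size: it had ratios of -0.68, -0.64, -0.56 and -0.27 and a mean of -0.54 ± 0.09 (SE), groups that did not overlap, an adjusted p of 0.130 (limma) and of 0.0328 with the array as a random block. The related gene Rbl2 had 0.32 ± 0.09, E2f1 had 0.37 ± 0.16 and E2f8 had 0.23 ± 0.17, with adjusted p of 0.220, 0.360 and 0.573. Rb1, like Cdkn1c, Cdkn2c and most of the 10 genes, lay nearest to 0 on the array of replicate 4.

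The genes that turn over p27 protein were measured in 6 of 7 cases, with 5 above 0 and a median of 0.21, or 0.11 with all kept probes of a gene averaged. Rbx1, the RING subunit of the ligase, had a mean of 0.28 ± 0.06 at its brightest probe (adjusted p = 0.161 by limma, 0.0416 with the random block and 0.0682 without it). Its other 2 kept probes had -0.12 and 0.11, so the probes of Rbx1 disagree in sign. Cks1b, the cofactor that presents p27 to the ligase, had 0.44 ± 0.14 at its brightest probe and 0.16 at its second. Skp2, the substrate receptor of the ligase, had 0.30 ± 0.13, and Rnf123, a ligase subunit for p27 outside the nucleus, had 0.13 ± 0.07.

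The p53 list was measured in 21 of 22 cases, with 7 above 0 and 14 below, and a median of -0.04, or -0.10 without replicate 1 and -0.11 without replicate 4. At an unadjusted p under 0.05 stood 2 higher and 4 lower, a threshold that took 6.26% of all gene names higher and 8.99% lower. The higher ones were Trp53, which encodes p53, at 0.29 ± 0.10, and Aen, a nuclease gene, at 0.25 ± 0.10; both are outside the naming rule and were added after their values were seen. The 4 lower ones were Sesn1 at -0.22 ± 0.06, a regulator of nutrient signalling, Ccng1 at -0.37 ± 0.10, an atypical cyclin, Gadd45a at -0.36 ± 0.12, a stress gene, and Ddb2 at -0.20 ± 0.07, a sensor of damaged DNA. Cdkn1a and Mdm2, which p53 also induces, had 0.11 and 0.13 beside them. Of the senescence and secretory genes 11 of 15 measured were above 0, with a median of 0.18 and medians by array of -0.17, 0.30, 0.12 and 0.53. The median was 0.40 without replicate 1 and 0.10 without replicate 4. The binding protein Igfbp5 had 1.13 ± 0.32, the protease inhibitor Timp1 0.64 ± 0.30 and the lysosomal enzyme Glb1 0.37 ± 0.17, and on the array of replicate 1 these 3 lay between -0.35 and 0.08. The cytokine Il6 was well above background in 3 of 4 Ad/NICD and 1 of 4 WT samples, with mean log2 signals of 6.44 in Ad/NICD fat and 6.00 in WT fat, so its size is not firm.

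Of the mouse orthologues of genes near CDK4 and MDM2 in the human amplicon, all 23 were measured, 11 above 0, with a median of -0.01. The largest were Mettl1, a tRNA methyltransferase, at 0.44 ± 0.11, and Cpm, a carboxypeptidase, at -0.34 ± 0.09. Os9 had -0.25 ± 0.10 and Cand1 had 0.17 ± 0.07 at its brightest probe (0.27 at its second). Among 12 other genes linked to liposarcoma, 6 were above 0, with a median of 0.00. Cebpa, a master regulator of adipocytes, had -0.93 ± 0.17, with ratios of -0.79, -1.11, -1.41 and -0.40 and groups that did not overlap (adjusted p = 0.136 by limma). The receptor genes Met and Igf1r had -0.45 ± 0.08 and -0.32 ± 0.09.

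In the list around Hmga2 and the let-7 miRNAs that restrain it, 7 of 10 genes were measured, 5 above 0, with a median of 0.04. Hmga1, its relative, had -0.22 ± 0.06 at its brightest probe, but -0.01 and 0.14 at its other 2 kept probes. Igf2bp3 had 0.13 ± 0.08, Igf2bp2 had -0.06 ± 0.06 and Dicer1 had 0.07 ± 0.08. Lin28b, Igf2bp1 and Trim71 were not kept as too dim. Of the imprinted growth genes, set beside Cdkn1c, 12 of 13 were measured, 6 above 0, with a median of 0.00, or -0.15 without replicate 4. The non-coding RNA H19 had -1.14 ± 0.18, and Plagl1 had -0.41 ± 0.14 at its brightest probe (-0.45 to 0.09 at its other 3). The preadipocyte gene Dlk1 had 0.73 ± 0.18 at its brightest probe (0.46 at its second), and Igf2r had 0.25 ± 0.07. H19 and Cdkn1c thus both lay below 0 on 4 of 4 arrays, as did 13.3% of all gene names.

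The S and M phase genes were above 0 in 21 of 23 measured cases, with a median of 0.15. The medians by array were -0.28, 0.50, 0.41 and 0.01, so the list lay above 0 on 3 arrays, and by more than 0.1 only on those of replicates 2 and 3. Its median was 0.31 without replicate 1, 0.05 without replicate 2 and 0.08 without replicate 3. The helicase subunits Mcm4 and Mcm5 had 0.46 ± 0.18 and 0.30 ± 0.16, and the cyclin Ccna2 had 0.46 ± 0.20. Birc5 had 0.32 ± 0.16 at its brightest probe, but 0.03 and 0.13 at its other 2 kept probes. On the arrays of replicates 2 and 3 the brightest probes of Ccnd1, Cdk4, Hmga2 and the inhibitor Cdkn2b also had their highest ratios. On the array of replicate 1, where the list median was -0.28, Ccnd1 had 0.215, Cdkn2b 0.45, Cdk4 -0.15 and Hmga2 -0.13. Of the inputs to the inhibitors, 9 of 19 measured genes were above 0, with a median of -0.01. Tgfb1 had 0.26 ± 0.10, its receptor Tgfbr1 had -0.26 ± 0.09 at its brightest probe (-0.11 at its second), and the signal carrier Smad2 had -0.31 ± 0.06. Smad4 had 0.20 ± 0.08 at its brightest probe and -0.30 at its second, so no direction is given for it.

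**Figure D3:**
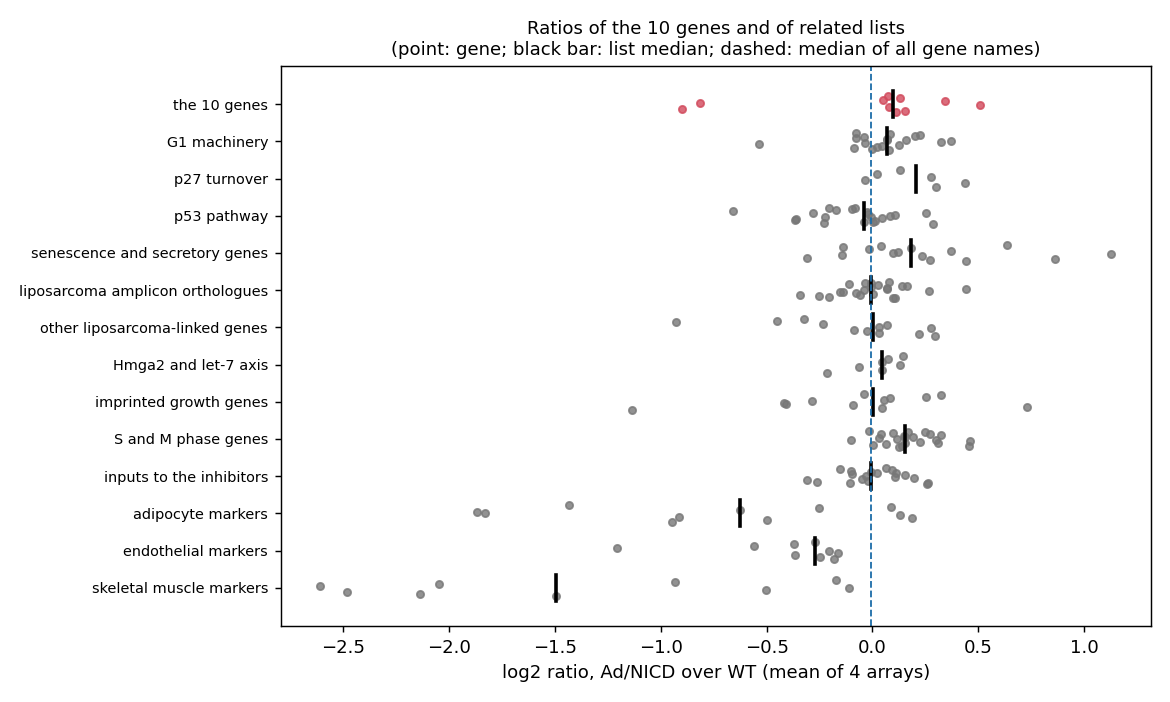
Mean log2 ratio of Ad/NICD over WT (x axis) of each measured gene in the 10 genes and in related lists, 1 row per list. Black bars are list medians and the dashed line is the median of all gene names at -0.01. Cdkn1c and Cdkn2c lie apart from the other 8 genes, and the adipocyte, endothelial and skeletal muscle markers lie mostly below 0.

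Markers of cell types were read beside these results. Of 11 adipocyte markers, 8 were below 0, with a median of -0.63, and the medians by array were -0.27, -0.78, -1.08 and -0.04. Their summed signal was 125700 to 235600 in Ad/NICD fat, against 249700 to 351800 in WT fat, with no overlap. This list, Cdkn1c, Cdkn2c, Rb1 and Cebpa were each nearest to 0 on the array of replicate 4. The same held for the brightest probes of Cdkn1a (-0.10), Cdkn2b (0.38), Ccnd1 (-0.17), Cdk4 (-0.03), Mdm2 (0.09) and Hmga2 (0.04), though not of Cdkn1b and Cdkn2a. It is thus not particular to genes that were lower in Ad/NICD fat, and its share over all gene names was not counted. All 9 endothelial markers were below 0 at their brightest probes, with summed signals of 11100 to 16810 in Ad/NICD fat and 18510 to 22010 in WT fat. The probes of Kdr, 1 of these markers, disagreed in sign, at -0.37 and 0.10. All 9 skeletal muscle markers were below 0, at 1097 to 7110 in Ad/NICD fat and 2299 to 115800 in WT fat, with a median of -3.64 on the array of replicate 4. All 8 progenitor markers were above 0 on average, with a median of 0.29, medians by array of -0.25, 0.54, 0.05 and 0.83, and overlapping sums of 91230 to 122100 in Ad/NICD fat and 58530 to 113300 in WT fat. All 5 erythroid markers were below 0 (median -0.61), with sums of 27820 to 57700 in Ad/NICD fat and 47420 to 64910 in WT fat. Of the mammary epithelium markers 6 of 7 were below 0 (median -0.43), with medians by array of -1.02, -1.33, 0.24 and 0.01. Their sums overlapped, at 3013 to 30090 in Ad/NICD fat and 2819 to 26200 in WT fat. Of the smooth muscle markers 5 of 6 were below 0 (median -0.28, but 0.55 on the array of replicate 4). The median was 0.04 for macrophage and for T cell markers and -0.27 for B cell markers. By array it was -0.68, 0.42, -0.01 and 0.69 for macrophage markers and 0.57, 0.45, -0.09 and -0.69 for T cell markers. Their values near 0 thus join arrays of opposite sign. No marker in these lists was dim in every sample. The part of these shifts in the values of Cdkn1c, Cdkn2c, Cdkn2b and Ccnd1 was not tested, and in whole tissue fewer cells of a type and less RNA per cell cannot be told apart.

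The signs of Cdkn2b, Cdkn1c and Cdkn2c were the same under all 13 alternative settings. Centring each array on its median in place of loess moved the median of all gene names to -0.32. Under that setting the log2 ratio of Cdkn2b was 0.05, which is 0.37 above that median, and Cdkn1c and Cdkn2c lay at -1.08 and -1 relative to it. The other 7 genes turned below 0 under that setting and lay between -0.07 and 0.22 relative to the median.

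**Figure D4:**
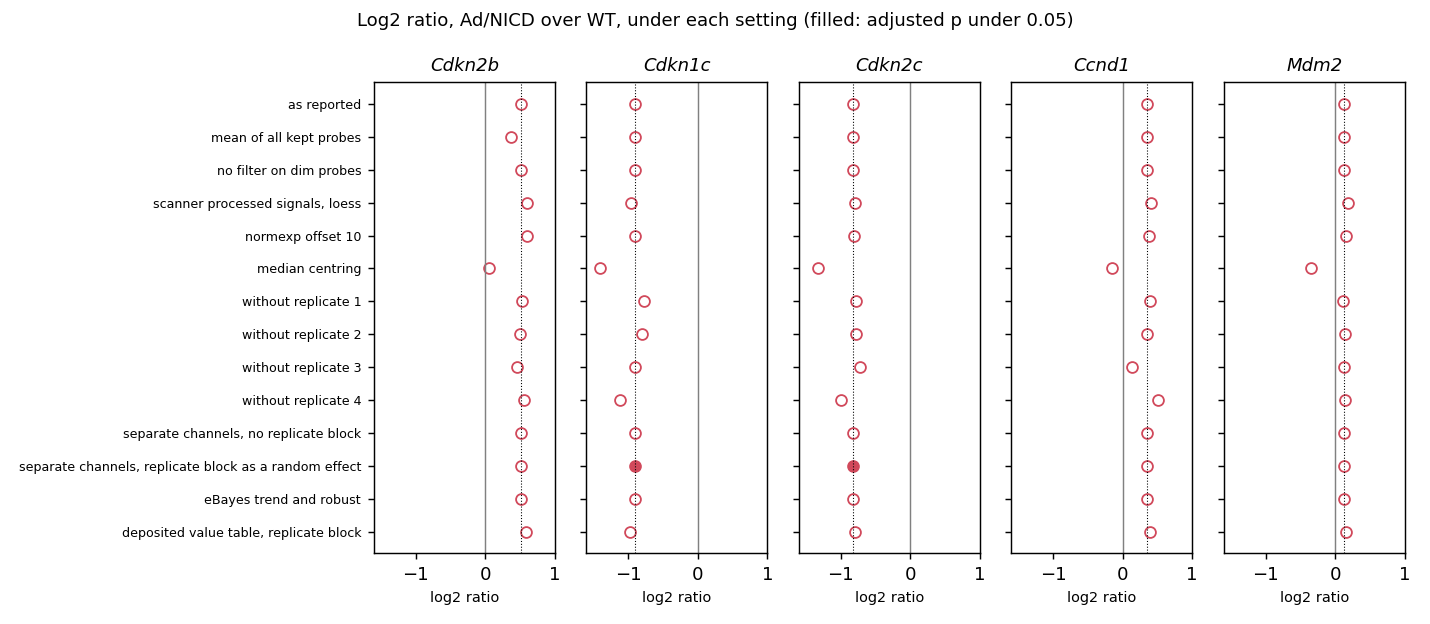
Log2 ratio of Ad/NICD over WT (x axis) of Cdkn2b, Cdkn1c, Cdkn2c, Ccnd1 and Mdm2 as reported and under 13 other settings (rows). Filled points passed the adjusted threshold, which only Cdkn1c and Cdkn2c did, with the array as a random block, and dotted lines mark the reported value.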

How the data were processed

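RNA of white adipose tissue from 4 Ad/NICD and 4 WT mice was measured on 4 two-colour Agilent arrays, scanned with Agilent Feature Extraction 11.5, per the submitters' processing notes. The deposited scanner tables hold the intensity of each spot and local background, without normalisation between arrays, per the file headers. The tables of same-numbered samples are identical, so each array is a pair. A deposited table of the authors' log2 values was used as an alternative; each column matched the processed signal of 1 channel minus a constant, with column medians of -3.82 to -3.51, and no source used here states its scaling.

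From the intensities, background was corrected with normexp (offset 50), arrays were normalised by loess with controls at weight 0, spots of 1 probe were averaged, and channels were scaled between arrays (Aquantile) for levels, with limma 3.58.1 in R 4.3.3. Names came from RefSeq accessions (28026 probes) or from the files (27655 probes). Probes well above background in either channel on at least 3 arrays were kept (34386), and the brightest stood for each of 25091 gene names. The array of replicate 1 lacks these flags, which were rebuilt from its negative controls. The cutoff of this rule was set on the other arrays, where it matched the scanner's flags for 98.4% to 99.99% of spots. That match is thus no independent check of the rule on replicate 1. The 4 log2 ratios were tested against 0 with lmFit and eBayes, adjusted over all gene names (Benjamini-Hochberg, threshold 0.05). The procedure was tested on simulated ratios, drawn independently for each gene without a dye effect or a deviating array, so it was not tested under those conditions. Same-numbered samples share an array, and their deviations from the group means correlated at 0.18, 0.17, 0.56 and 0.53 for replicates 1 to 4. All 4 arrays lie on 1 slide by the numbering of the deposited files. The genes and lists were chosen with earlier results of these data known. Named from each list were genes past the threshold, then those of lowest p up to 4; 1 gene that this rule names is not reported here. The alternatives covered the probe rule, the filter on dim probes, the scanner's processed signals, the normexp offset, median centring, leaving out each replicate, the channels fitted without or with the array as a random block, a trended robust eBayes, and the authors' values.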

Additional observations from a re-analysis of the deposited data

Results flagged for a closer look

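The ratios and the levels of the 10 genes in each genotype were searched for a sample far from the other 3, by the gap to the nearest sample over the whole range (Dixon's criterion). Of 30 groups of 4 values, 3 stood out, and chance marks about 1 in 20 groups. For the Cdkn1b ratio the quotient was 0.938: replicate 1 had 0.10, the other 3 arrays 0.17 each. For the Cdkn1c level in WT fat it was 0.867: replicate 4 had a log2 signal of 10.87, the others 11.63 to 11.75. For the Ccnd1 level in WT fat it was 0.896: replicate 4 had 10.71, the others 10.94 to 10.96. The last pair belong to the WT sample that also carried Y-linked signal. The samples of replicate 4 also differed in tissue markers. Krt18, of epithelium, was at 6.71 in its Ad/NICD and 6.33 in its WT sample, and at 12.88 to 14.26 in Ad/NICD and 13.86 to 14.04 in WT samples elsewhere. Its WT sample had Myh4, of skeletal muscle, at 15.58, against 9.65 to 11.97 in the other WT samples, and Cnn1, of smooth muscle, at 8.61, against 12.29 to 12.63. The part of sex or of tissue content in these values was not tested.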

How the results depend on the processing

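The 12 calls over all gene names became 0 with no filter on dim probes, 3 with the scanner's processed signals, 0 with median centring, 0 with a trended robust eBayes and 3 with the authors' values. Leaving out a replicate gave 0 to 43 calls, with 43 without replicate 4. The fit of separate channels with no replicate block gave 256 calls, and with the array as a random block (consensus correlation 0.16) 496. Of the 10 genes, 0 were called, except 2 with the random block, Cdkn1c and Cdkn2c; the causes were not tested. Median centring, whose all-gene median was -0.32, reversed Cdkn1a (-0.39), Cdkn1b (-0.34), Cdkn2a (-0.20), Ccnd1 (-0.15), Cdk4 (-0.39), Mdm2 (-0.35) and Hmga2 (-0.10). Leaving out a replicate gave -0.25 to 0.32 for Cdkn1a and -0.002 to 0.17 for Cdkn2a, both negative without replicate 1, and -0.007 to 0.12 for Cdk4, negative without replicate 3. Leaving out a replicate gave 0.46 to 0.55 for Cdkn2b, -1.12 to -0.78 for Cdkn1c and -0.997 to -0.72 for Cdkn2c. Signal limits Hmga2, Cdkn2a and the second Cdkn1a probe, which are dim. With no dyes swapped, a dye effect on a probe would enter its ratio on every array, and its size may differ between probes.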
